A study of Mus musculus with 96 samples.

Results

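The data compared here are the RNA-seq profiles of C2C12 myoblasts that expressed mitoLbNOX and were treated with antimycin or with DMSO. They were chosen by their column titles, 3 antimycin and 3 DMSO libraries, 6 of the 96 samples of the series. C2C12 is a mouse muscle precursor cell line, and all 6 libraries came from cultures that were proliferating, not differentiated, when treatment began. MitoLbNOX is a water-forming NADH oxidase of Lactobacillus brevis that carries a mitochondrial targeting sequence, so it oxidizes NADH in the mitochondrial matrix without the respiratory chain. The cells carried it as a stable lentiviral transgene under a doxycycline-inducible promoter. Both groups received 300 ng/ml doxycycline 24 hr before treatment and were then kept for 10 hr in 0.5 µM antimycin, an inhibitor of respiratory complex III, or in the vehicle DMSO. The medium held glucose and glutamine and lacked pyruvate and uridine. Further groups were set beside them. Control cells, which carried luciferase (Luc) in place of the oxidase, and cells with LbNOX, the same oxidase without the targeting sequence and therefore in the cytosol, had the same doxycycline, antimycin and DMSO treatments, and mitoLbNOX cells also received 0.5 µM piericidin, an inhibitor of complex I. Each transgene was studied in a single line of cells and each group held 3 libraries. The labels give no source of the replicates beyond wells. The p-values therefore measure the spread between libraries of a group, estimated over all 37 myoblast libraries treated for 10 hr. This spread may be technical.

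Complex III takes electrons from ubiquinol, so antimycin stops electron flow from NADH through complex I and also from the other dehydrogenases that feed ubiquinone, among them the pyrimidine enzyme dihydroorotate dehydrogenase. Mammalian cells answer many forms of mitochondrial impairment with the integrated stress response (ISR). In this pathway kinases phosphorylate the translation factor eIF2α, most translation slows, and the mRNA of the transcription factor ATF4 is translated more. ATF4, with its partners of the C/EBP family, then raises the transcription of genes for amino acid synthesis, amino acid transport and tRNA charging, and of further regulators such as Ddit3 (CHOP), Atf3 and Trib3. The comparison asks which of the responses to complex III inhibition were still present in cells able to oxidize matrix NADH by another route.

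The 6 libraries held 9303912 to 13248529 estimated counts, and the 37 myoblast libraries treated for 10 hr, in 13 conditions, held 7796879 to 14960910. Levels below are these counts divided by DESeq2 size factors (normalized counts). The oxidase transcript was present in all 6 libraries and luciferase, NDI1 and eGFP were at 0 counts in each. Its normalized count was 18464, 17628 and 20474 in DMSO and 7521, 9025 and 7796 in antimycin. The groups did not overlap, and the antimycin mean was 43.0% of the DMSO mean (log2 fold change -1.21 ± 0.12 (SE), adjusted p = 2.96e-08, edgeR quasi-likelihood test). With piericidin the values were 17708, 16751 and 19586, 95.5% of the DMSO mean. Transgenes of the other lines were also lower in antimycin, with LbNOX at 30.4% and luciferase at 54.5% of their DMSO means. The antimycin-treated mitoLbNOX cells still held 2.86 times the oxidase transcript of antimycin-treated LbNOX cells. The part of this lower transgene level in the results below was not tested, and the enzyme itself was not measured here.

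**Figure D1:**
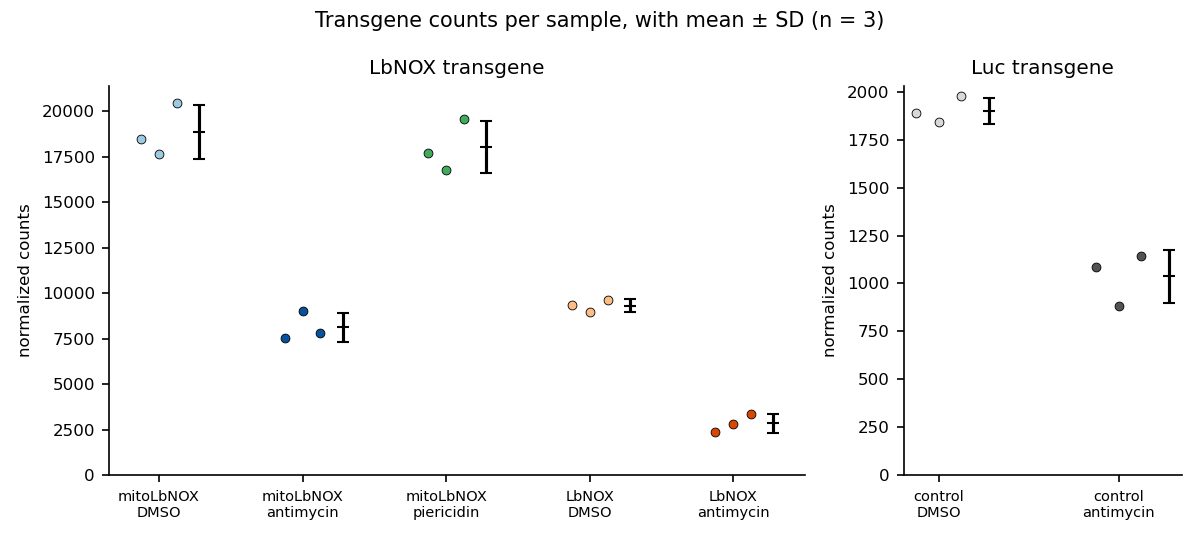
Transgene counts, divided by size factors, in each library (points) with the mean and SD of 3 libraries (bars) for the oxidase on the left, where LbNOX and mitoLbNOX are counted on the same sequence, and for luciferase on the right. All 3 antimycin libraries of each line lie below the DMSO libraries of that line, and the mitoLbNOX piericidin libraries overlap the DMSO libraries.

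Markers of proliferating myoblasts were present in all 6 libraries. Myod1, the transcription factor that defines the muscle lineage, held 1107, 1089.5 and 1012 normalized counts in DMSO and 1055, 918 and 927 in antimycin, which overlap (adjusted p = 0.0953, and 0.0259 without antimycin replicate 1). Of all 8 myoblast markers tested, 3 were called higher and 4 lower in antimycin, where 24.8% and 22.9% of all genes were, with log2 fold changes from -1.76 for Pax7 to 1.97 for Myf5. Summed over the 8, the level ran from 67050 to 72010 in DMSO and from 64050 to 68070 in antimycin. Of 12 markers of myotubes, 2 passed the filter on low counts, and Acta1, skeletal muscle actin, was higher in antimycin (log2 fold change 1.90 ± 0.14, adjusted p = 9.34e-13), while the myosin light chain Mylpf gave -0.43 ± 0.33 (adjusted p = 0.3). The sum over all 12 was 170.8 to 227.5 in DMSO and 646 to 703.6 in antimycin, far below that of the myoblast markers, and the regulator Myog reached at most 6 counts. Of 12 markers of leukocytes, endothelium, epithelium, fat, mesenchyme and nervous tissue, 3 passed the filter, Cdh5, Epcam and Adipoq were at 0, and the sum over all 12 ran from 37.1 to 103 in DMSO and from 101 to 116 in antimycin. Cd68, a lysosomal protein used as a macrophage marker, rose from 6.15, 1.73 and 10.9 to 63.6, 60.5 and 65.4 normalized counts (adjusted p = 3.31e-08), whereas Ptprc, which all leukocytes carry, reached at most 4 counts. Pdgfra, a growth factor receptor of mesenchymal cells, fell from 36.1, 21.6 and 58.6 to 14.7, 8 and 8.72 (log2 fold change -1.88 ± 0.49, adjusted p = 0.00218), and the endothelial Pecam1 gave 0.51 ± 0.37 (adjusted p = 0.273). The part of these changes in the results below was not tested. The labels give a well code for each library, and read as a 96-well plate these put DMSO replicates 1 and 2 and antimycin replicate 1 at the edge. In a chi-square test of the counts, DMSO replicates 1 and 2 differed by 3.66 per gene against 8.10 and 8.69 for the pairs with replicate 3, and antimycin replicates 2 and 3 by 4.94 against 9.69 and 8.53, where sampling noise alone would give a value near 1.

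Antimycin changed the expression of many genes in cells with mitoLbNOX. Of 11981 genes tested, 5711 (47.7%) were called at an adjusted p under 0.05, 2966 higher (24.8%) and 2745 lower (22.9%), and 1235 (10.3%) changed at least 2-fold, 587 of them higher (4.90%) and 648 lower (5.41%). The median log2 fold change over all genes was 0.01. A value in parentheses after a gene is its log2 fold change, or its log2 difference where responses are compared. Groups did not overlap for 6515 genes (54.4%). The genes given next are the 15 with the largest rises and the 15 with the largest falls among called genes that averaged 50 or more normalized counts and did not overlap between groups, so their lack of overlap is set by the choice.

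Fgf21, a hormone released by muscle and liver under metabolic stress, rose the most of these genes. It held 8.46, 0 and 0 normalized counts in DMSO and 248, 249 and 264 in antimycin (log2 fold change 6.29 ± 0.42, adjusted p = 1.06e-13). Only 1 DMSO library had any reads, and without that library (DMSO replicate 1) the fitted log2 fold change was 11.02, a value that depends on the prior count, while the gene was still called. Car6, a secreted carbonic anhydrase, went from 3.84, 6.91 and 0.99 to 336, 271 and 285 (log2 fold change 6.17 ± 0.26), and Avil, an actin-binding protein, from 0.77, 2.59 and 4.97 to 132, 128 and 129.9 (log2 fold change 5.58 ± 0.42). Next in size were Atf3 (5.57), the growth arrest gene Gadd45a (5.10), Cdsn (4.92), a cell adhesion protein of the skin, the mast cell tryptase Tpsab1 (4.71), Trib3 (4.49) and Ddit3 (4.48). Adm2, Angptl6, Gdf15, Gsta1, the mitochondrial thioesterase Acot2 and the calcium pump Atp2a3 rose by log2 3.72 to 4.11. Reads of Gsta1 can be split with near-identical members of its family, which makes its level uncertain.

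Ppp1r10 (GRCm38 chr17:35916434-35932283), which encodes a nuclear regulatory subunit of protein phosphatase 1, fell the most of these genes. It held 533, 584 and 499.6 normalized counts in DMSO and 42.8, 30.8 and 38.4 in antimycin (log2 fold change -3.84 ± 0.14, adjusted p = 2.38e-20). Angpt1, a ligand of the endothelial receptor Tie2, went from 553, 547 and 496 to 51.4, 44.5 and 45.3 (log2 fold change -3.49 ± 0.17), and Egr1, a growth factor-induced transcription factor, from 1010.0, 934 and 936 to 116, 80.0 and 119 (log2 fold change -3.17 ± 0.12). The linker histone Hist1h1b (-3.09) and the core histone Hist1h2ab (-2.51) also fell. Histone genes are near copies of each other and mostly lack polyA tails, so these counts in a polyA-selected library are uncertain. The others with the largest falls were Synpo, Etl4, Arhgap18, Ctnnal1, Gprin3, the PI3-kinase subunit Pik3r3, Rin2, the pyruvate dehydrogenase kinase Pdk4, the peptide Apln and the repressor E2f8, at log2 -2.98 to -2.49. Etl4 varied in antimycin, at 7.34, 8 and 28.8 normalized counts. Its log2 fold change ran from -4.01 to -2.68 over the alternatives, with the call kept. Its values below rest on the same antimycin libraries.

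The ISR regulators had the largest median change of the 25 lists. Of 20 regulators and direct targets listed, 19 were tested and 18 rose, where 24.8% of all genes did. Jdp2, which overlapped between groups, was the exception. Their median log2 fold change was 2.70, and the summed level of all 20 went from between 5893 and 6174 to between 34490 and 35040 normalized counts. Atf4, the transcription factor that heads the pathway, held 2528, 2633 and 2394 in DMSO and 10119, 9758 and 9654 in antimycin (log2 fold change 1.98 ± 0.03, adjusted p = 1.2e-28). Ddit3, the pro-apoptotic partner of ATF4, held 189, 184 and 211 in DMSO and 4314, 4377 and 4212 in antimycin (log2 fold change 4.48 ± 0.07, adjusted p = 1.51e-29). For both genes the antimycin libraries lay far above the DMSO libraries. Atf3, a stress-induced repressor of the same family, held 15.4, 12.1 and 9.93 in DMSO and 660.2, 618 and 534 in antimycin (log2 fold change 5.57 ± 0.21, adjusted p = 9.49e-20). Trib3, a pseudokinase that dampens the pathway, held 171, 185 and 171 in DMSO and 4011, 3994 and 3754 in antimycin (log2 fold change 4.49 ± 0.09). Ppp1r15a (GADD34), the phosphatase subunit that reverses eIF2α phosphorylation, held 198, 245 and 222 in DMSO and 2017, 1904 and 1981 in antimycin (log2 fold change 3.16 ± 0.10). Brakes on the pathway rose along with its activators. Gdf15, a circulating marker of mitochondrial disease, held 72.3, 85.5 and 76.5 in DMSO and 1115, 1099 and 1197 in antimycin (log2 fold change 3.87 ± 0.11, adjusted p = 2.27e-22). Chac1, which degrades glutathione, held 266, 231 and 244 in DMSO and 2490.3, 2331 and 2512 in antimycin (log2 fold change 3.32 ± 0.11). Among the rest, the lipoprotein receptor Vldlr rose by log2 3.45 ± 0.18, the stress protein Nupr1 by 2.57 ± 0.07, the ATF4 partner Cebpg by 1.73 ± 0.14 and Atf5, which had the smallest rise, by 0.71 ± 0.29 (adjusted p = 0.0453). Atf5 lost its call when antimycin replicate 2 or 3 or DMSO replicate 1 or 2 was left out (adjusted p = 0.101 to 0.364), and its log2 fold change was 0.38 without antimycin replicate 3.

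**Figure D2:**
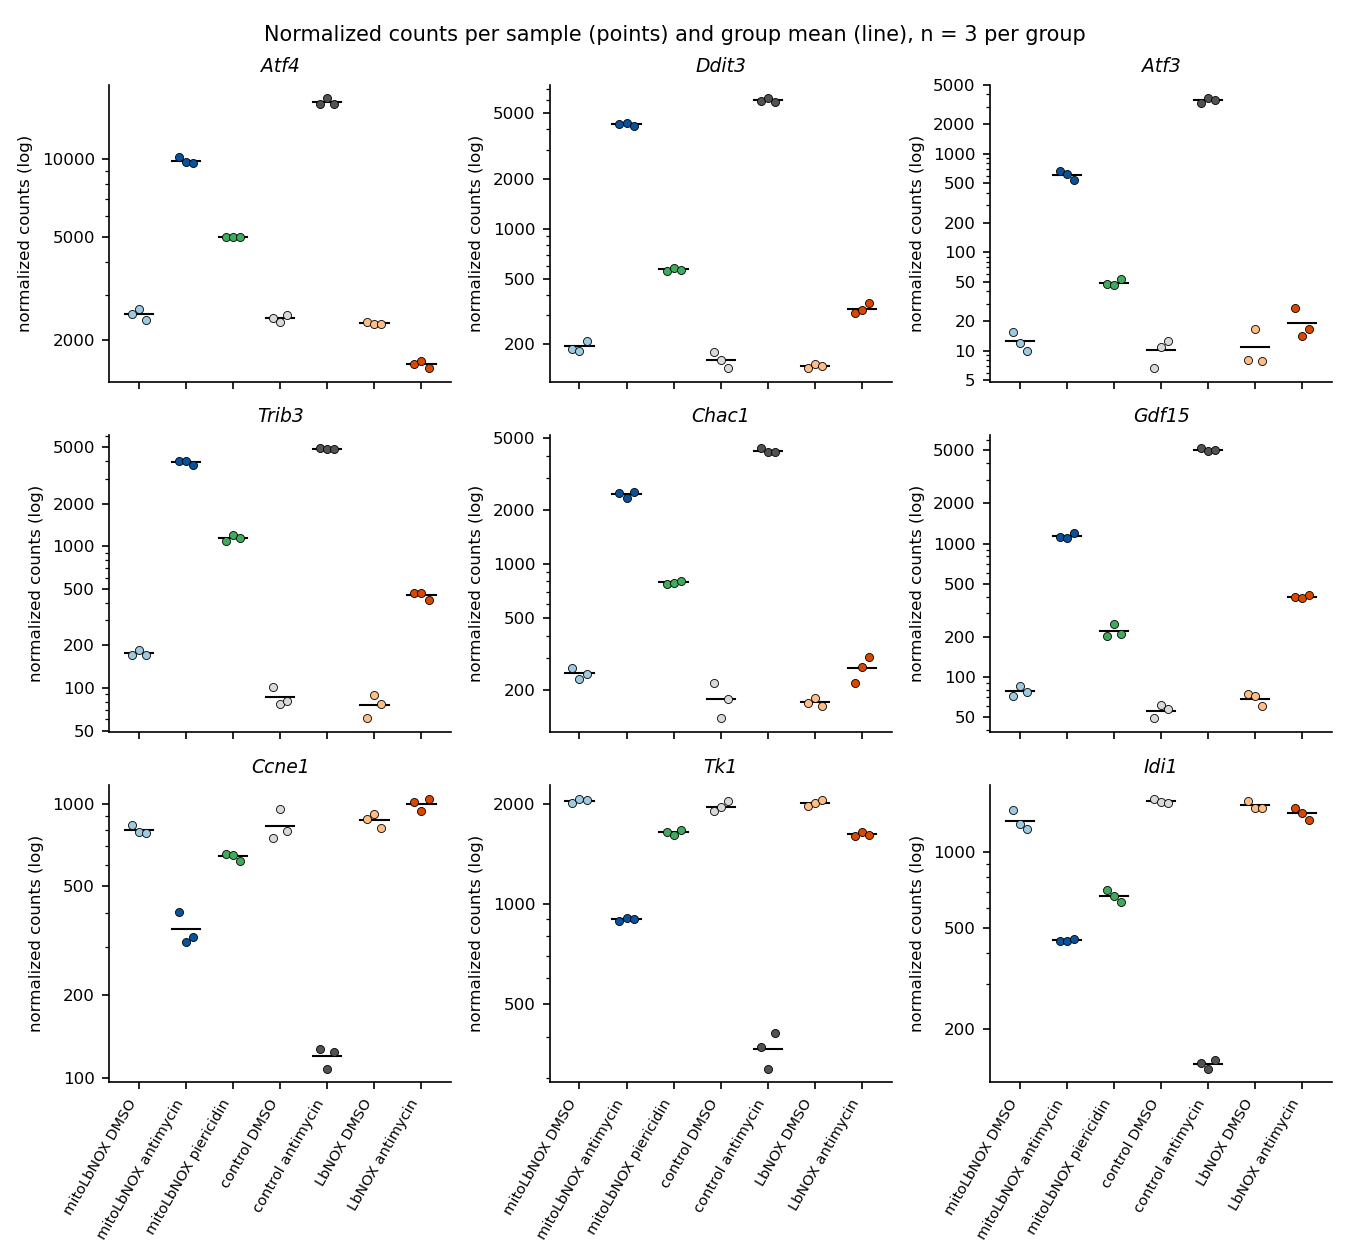
Normalized counts of 9 genes on logarithmic axes in each library (points) with the mean of the 3 libraries (lines), for 7 groups of myoblasts. For the 6 ISR genes in the upper rows the antimycin libraries of mitoLbNOX cells lie above those with DMSO and below those of control cells with antimycin, and for Ccne1, Tk1 and Idi1 they lie between the DMSO libraries and the control libraries with antimycin.

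ATF4 binds with C/EBP proteins to a composite element, searched here as TTGCATCA on either strand in RefSeq promoter windows of GRCm38.p6 that run from 250 bases before to 50 after each start. It was found in 294 of 32851 windows (0.895%) and at 61 of the 8828 tested genes with a window (0.691%). Of the listed genes tested that had a window, 6 of 18 ISR regulators held it (Atf3, Chac1, Nupr1, Fgf21, Jdp2 and Vldlr), 2 of 13 amino acid enzymes (Pycr1 and Got1), 2 of 9 transporters (Slc7a11 and Slc1a4) and 4 of 12 cytosolic tRNA synthetases (Aars, Iars, Tars and Yars). Jdp2 held the letters although it was not called, and Ddit3 and Trib3 rose without them in their window. A match describes letters and not binding. Of the genes that held it and rose, Fgf21, Atf3, Chac1 and the tRNA synthetase gene Aars are shown as examples, 5′ to 3′ on the strand of the gene, with the element in capitals. It starts at -139 from the start in Fgf21 (chr7:45615441-45615740, minus strand), at -110 in Atf3 (chr1:191183284-191183583, minus strand), at -193 in Chac1 (chr2:119350992-119351291, plus strand) and at -112 in Aars (chr8:111033592-111033891, plus strand), each in the orientation of the gene.
Fgf21: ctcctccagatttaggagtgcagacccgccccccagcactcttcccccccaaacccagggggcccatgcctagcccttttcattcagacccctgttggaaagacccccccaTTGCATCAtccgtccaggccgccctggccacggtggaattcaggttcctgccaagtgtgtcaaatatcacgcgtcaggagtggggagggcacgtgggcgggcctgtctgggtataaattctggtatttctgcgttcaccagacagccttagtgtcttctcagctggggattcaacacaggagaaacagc
Atf3: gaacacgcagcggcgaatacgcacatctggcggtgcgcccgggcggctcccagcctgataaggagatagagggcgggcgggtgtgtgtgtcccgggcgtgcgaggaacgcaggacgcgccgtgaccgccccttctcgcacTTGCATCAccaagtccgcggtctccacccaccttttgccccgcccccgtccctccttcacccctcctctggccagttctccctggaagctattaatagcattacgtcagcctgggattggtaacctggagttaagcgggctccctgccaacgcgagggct
Chac1: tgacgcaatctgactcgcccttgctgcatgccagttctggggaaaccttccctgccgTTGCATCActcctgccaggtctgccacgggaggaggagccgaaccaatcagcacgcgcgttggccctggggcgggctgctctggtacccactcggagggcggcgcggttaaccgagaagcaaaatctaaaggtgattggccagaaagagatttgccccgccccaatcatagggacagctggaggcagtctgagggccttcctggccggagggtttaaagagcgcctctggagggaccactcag
Aars: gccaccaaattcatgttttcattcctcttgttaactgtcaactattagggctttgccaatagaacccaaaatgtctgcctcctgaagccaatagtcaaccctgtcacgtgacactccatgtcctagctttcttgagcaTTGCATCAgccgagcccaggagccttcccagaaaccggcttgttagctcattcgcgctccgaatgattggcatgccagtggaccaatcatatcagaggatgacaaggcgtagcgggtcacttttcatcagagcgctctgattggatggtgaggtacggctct

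Genes of amino acid metabolism rose with the ISR regulators. Of 16 enzymes of amino acid synthesis and one-carbon metabolism, 14 rose, 1 fell and 1 did not pass the test, where 24.8% of all genes rose and 22.9% fell, with a median log2 fold change of 1.35. Cth, which makes cysteine from cystathionine, held 156, 123 and 105 normalized counts in DMSO and 1446, 1147 and 1259.7 in antimycin (log2 fold change 3.32 ± 0.10, adjusted p = 1.7e-22). Asns, asparagine synthetase, held 2207, 2014 and 1994 in DMSO and 6993, 6385 and 6415 in antimycin (log2 fold change 1.68 ± 0.05). Neither gene overlapped between groups. The mitochondrial folate enzymes Aldh1l2 (2.23) and Mthfd2 (1.82), the alanine aminotransferase Gpt2 (2.12) and the proline enzymes Aldh18a1 (1.40) and Pycr1 (1.31) rose as well. Cbs, the enzyme upstream of Cth, fell (log2 fold change -1.05 ± 0.42, adjusted p = 0.0405), a call lost without any of the same 4 libraries (0.0977 to 0.162) and in DESeq2 (0.0592). Of 13 amino acid transporters, 9 rose and 3 fell, with a median of 0.88. The arginine and lysine carrier Slc7a3 (3.01), the glycine carrier Slc6a9 (2.49), the heavy chain Slc3a2 (1.97), its leucine-carrying partner Slc7a5 (1.79) and the cystine carrier Slc7a11 (1.38) were among those that rose, and the glutamate and aspartate carrier Slc1a3 fell (-1.59). Of 19 cytosolic tRNA synthetases tested, which load amino acids onto tRNAs, 13 rose and 1 fell, with a median of 0.97. Sars held 2494, 2633 and 2363 in DMSO and 7208, 7066 and 6965 in antimycin (log2 fold change 1.51 ± 0.04), and Wars (1.44), Aars (1.35) and Eprs (1.26) followed. Of 17 mitochondrial tRNA synthetases, 5 rose and 3 fell, near those shares of all genes, with a median of 0.22.

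Genes of the cell cycle fell together. Of 40 genes for DNA replication and the G1/S transition, 34 fell and 2 rose, where 22.9% of all genes fell, and their median log2 fold change was -0.66. Ccne1, cyclin E1, which drives entry into S phase, held 836, 792 and 781 normalized counts in DMSO and 403, 313 and 328 in antimycin (log2 fold change -1.20 ± 0.09, adjusted p = 2.14e-12). Tk1, thymidine kinase, held 2019, 2073 and 2050.1 in DMSO and 890.0, 909 and 899.7 in antimycin (log2 fold change -1.18 ± 0.05, adjusted p = 1.8e-17). No antimycin library of either gene reached the lowest DMSO library. E2f2 (-2.14), an activator of S phase genes, and Ung (-1.71), which removes uracil from DNA, had the largest falls of the list, while the licensing factor Cdt1 (0.37) and the clamp loader subunit Rfc4 (0.33) rose. Of 26 genes of G2 and mitosis, 23 fell and 3 (Ube2c, Nek2 and Tpx2) did not pass the test, with a median of -0.57. Mki67 (-1.06), the mitotic kinase Plk1 (-1.06), topoisomerase Top2a (-1.01) and the motor Kif11 (-0.95) fell the most. In bulk RNA, fewer cells in a phase and less of its RNA per cell cannot be told apart. An E2F element, searched as TTTNNCGC on either strand, stood in a window of 15 of 31 replication genes and 1 of 20 mitotic genes, of 10.3% of tested genes and of 5.17% of all windows. The window of the replication licensing gene Cdc6 (log2 fold change -0.67 ± 0.10), chr11:98907901-98908200 on the plus strand, is given as an example with the element in capitals, on the strand opposite to the gene and starting at -138.
Cdc6: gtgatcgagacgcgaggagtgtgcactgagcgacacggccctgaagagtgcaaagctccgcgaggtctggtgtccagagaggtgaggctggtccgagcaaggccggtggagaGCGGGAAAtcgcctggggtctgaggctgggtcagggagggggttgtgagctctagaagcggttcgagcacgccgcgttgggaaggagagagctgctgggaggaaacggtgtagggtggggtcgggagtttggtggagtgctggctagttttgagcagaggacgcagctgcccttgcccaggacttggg

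Sterol synthesis genes also fell. Of 25 genes of cholesterol synthesis and uptake, 23 fell, where 22.9% of all genes fell and 24.8% rose, with a median log2 fold change of -0.89, and Tm7sf2 (0.20) and Ebp (-0.13) did not pass the test. Tm7sf2 was called higher with the covariate for edge wells (adjusted p = 0.0415), and Ebp was called lower without DMSO replicate 3 (log2 fold change -0.21, adjusted p = 0.0295). Idi1, which isomerizes isopentenyl diphosphate, held 1469, 1297 and 1238 normalized counts in DMSO and 446, 447 and 455 in antimycin (log2 fold change -1.56 ± 0.08, adjusted p = 5.4e-17). Hmgcs1, which makes HMG-CoA, held 1882, 1676 and 1742 in DMSO and 664, 699 and 657 in antimycin (log2 fold change -1.38 ± 0.06). Neither gene overlapped between groups. The thiolase Acat2 (-1.71) and the sterol carrier Stard4 (-1.47) fell too. Of 12 genes of fatty acid synthesis, 8 fell and 1 rose, with a median of -0.31, led by the elongase Elovl6 (-2.22) and the desaturase Scd2 (-1.59). A sterol regulatory element, searched as TCACNCCAC on either strand, stood in the window of 1 of the 17 cholesterol genes with a window, Hmgcs1, against 1.24% of all windows. It starts at -137 of that gene (chr13:119690101-119690400, plus strand) and is in capitals.
Hmgcs1: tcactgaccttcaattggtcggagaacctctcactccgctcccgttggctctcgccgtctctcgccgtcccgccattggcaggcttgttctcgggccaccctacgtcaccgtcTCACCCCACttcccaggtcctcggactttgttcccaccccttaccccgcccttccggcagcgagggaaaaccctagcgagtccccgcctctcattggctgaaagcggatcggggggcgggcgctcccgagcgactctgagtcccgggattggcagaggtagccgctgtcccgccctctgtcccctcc

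Messages encoded by mitochondrial DNA were lower. Of 13, 9 fell and 2 rose, where 22.9% of all genes fell and 24.8% rose, with a median log2 fold change of -0.43, and their share of all counts was 0.937% to 1.08% in DMSO and 0.732% to 0.859% in antimycin. mt-Cytb, the subunit of complex III to which antimycin binds, held 11602, 9997 and 9621 normalized counts in DMSO and 5739.9, 5473 and 4747 in antimycin (log2 fold change -0.96 ± 0.08, adjusted p = 7.18e-11). The complex I subunits mt-Nd5 (-1.19), mt-Nd3 (-1.08) and mt-Nd4l (-1.70) fell as well, the last with a DESeq2 adjusted p of 0.128 and thus no call there. mt-Co1 (0.50) and mt-Co2 (0.43), subunits of complex IV, rose. The libraries did not keep strand and some of these genes overlap or lie opposite each other, so reads of such pairs cannot be told apart. Of 14 nuclear genes for complex III subunits and assembly factors tested, 7 rose and 1 fell (2 when DMSO replicate 2 of the control was left out of the fit), with a median of 0.23. Uqcrq (0.89) and the assembly factor Bcs1l (0.66) rose and the hinge protein Uqcrh fell (-0.55). Of 15 mitochondrial chaperones and proteases, 8 rose and 1 fell, with the matrix protease Lonp1 first, at 327, 361 and 385 in DMSO and 1011, 1282 and 1139 in antimycin (log2 fold change 1.69 ± 0.11).

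**Figure D3:**
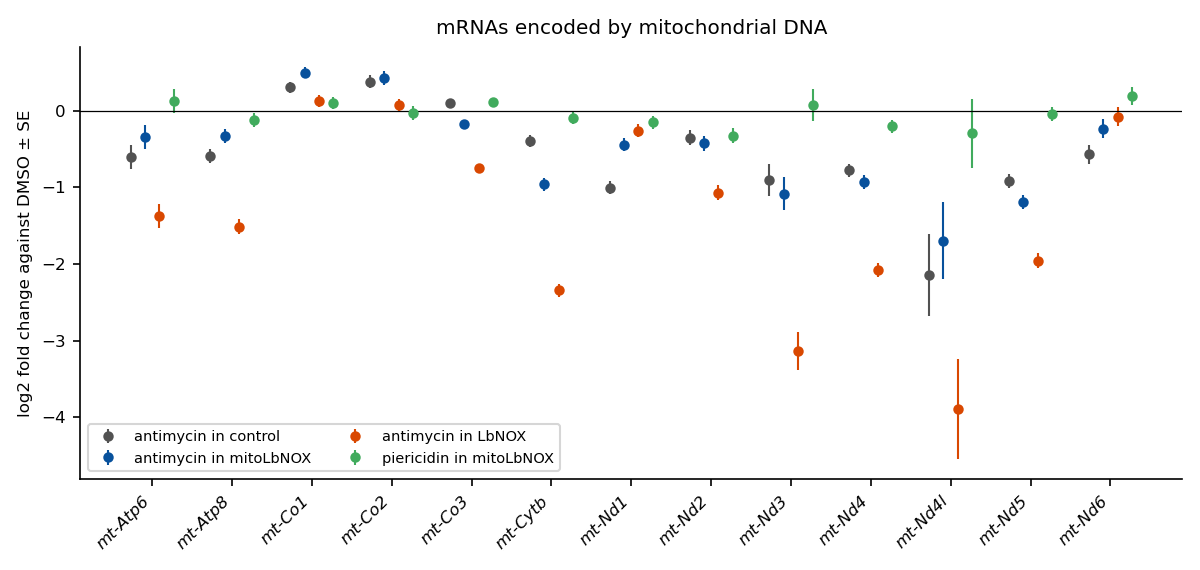
Log2 fold changes against DMSO with their standard errors for the 13 mRNAs of mitochondrial DNA in 4 comparisons of 3 against 3 libraries. In mitoLbNOX cells with antimycin 9 lie below 0 and pass the test, and in LbNOX cells with antimycin mt-Nd3 and mt-Cytb lie lowest after mt-Nd4l.

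Other lists held changes in both directions, where 24.8% of all genes rose and 22.9% fell. Of 18 NRF2 antioxidant genes, 12 rose and 2 fell, with a median of 0.33. Gsta4, which conjugates lipid peroxidation products, rose from 569.6, 546 and 541 to 3971, 4078 and 3791 normalized counts (log2 fold change 2.85 ± 0.06), and the heme oxygenase Hmox1 from 429, 504 and 387 to 1888, 1728 and 1845 (2.06 ± 0.07). Of 20 entries for glycolysis tested, with Aldoa counted for 2 gene identifiers, 6 rose and 5 fell, shares near those of all genes. The glucose carrier Slc2a1 (1.56) and hexokinase Hk2 (2.11) rose, and Pfkm (-0.61) fell. Of 16 HIF targets, 5 rose and 2 fell, which is also near or below the shares of all genes, and the median was 0.03. Ndrg1 (3.65), Ero1l (2.42) and Vegfa (1.71) were among the former and Egln3 (-1.49) among the latter. Of 13 genes of the NADH shuttles and lactate, 3 rose and 6 fell, with the aspartate aminotransferase Got1 (1.39) highest and the aspartate and glutamate carrier Slc25a12 (-1.17) lowest. Of 15 genes of pyrimidine synthesis and salvage, 4 rose and 7 fell. Dhodh, whose enzyme passes electrons to ubiquinone, gave 0.17 ± 0.10 (adjusted p = 0.179), and Cad, the first enzyme of the pathway, rose (0.62). Of 17 ER chaperones, 5 rose and 9 fell. Hspa5 (BiP), the main one, rose from 7917, 7893 and 7125 to 20379.9, 18529 and 17901 (log2 fold change 1.32 ± 0.04), as did Herpud1 (1.57) and Dnajb9 (0.90), while Sdf2l1 (-0.86) and Manf (-0.42) fell. Of 20 ribosome biogenesis factors, 17 rose, by small amounts (median 0.42), with the polymerase I subunit Polr1b (0.72) and the snoRNP protein Nop56 (0.69) among the top. Of 14 chemokines and cytokines, 5 rose and 6 fell, the latter with Ccl2 (-1.57) and Cxcl12 (-1.18).

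Of 23 p53 targets, 10 rose and 5 fell, the latter close to the 22.9% of all genes that fell (24.8% rose), with a median of 0.14. Cdkn1a (p21), which halts the cell cycle, held 1109, 1064 and 1088 normalized counts in DMSO and 1579.5, 1624 and 1561 in antimycin (log2 fold change 0.56 ± 0.05, adjusted p = 2.48e-10). Trp53inp1, a target that promotes cell death, held 75.3, 88.9 and 102 in DMSO and 108, 86.8 and 157 in antimycin, which overlap (adjusted p = 0.193). Pmaip1 (NOXA), a pro-apoptotic protein that ATF4 also induces, rose more, by log2 2.20 ± 0.11. Of 22 immediate early and kinase feedback genes, 9 rose and 7 fell, with a median of 0.28. Here Egr1 (-3.17), Egr2 (-2.94) and Egr3 (-2.37) fell, while Dusp4 (2.02), a phosphatase of MAP kinases, Klf4 (1.87), the nuclear receptor Nr4a1 (1.65) and Myc (1.05) rose. Myf5, a myoblast transcription factor, rose from 86.9, 67.3 and 82.4 to 351, 290.1 and 287 (1.97 ± 0.14), and Pax7, that of muscle stem cells, fell (-1.76 ± 0.44).

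**Figure D4:**
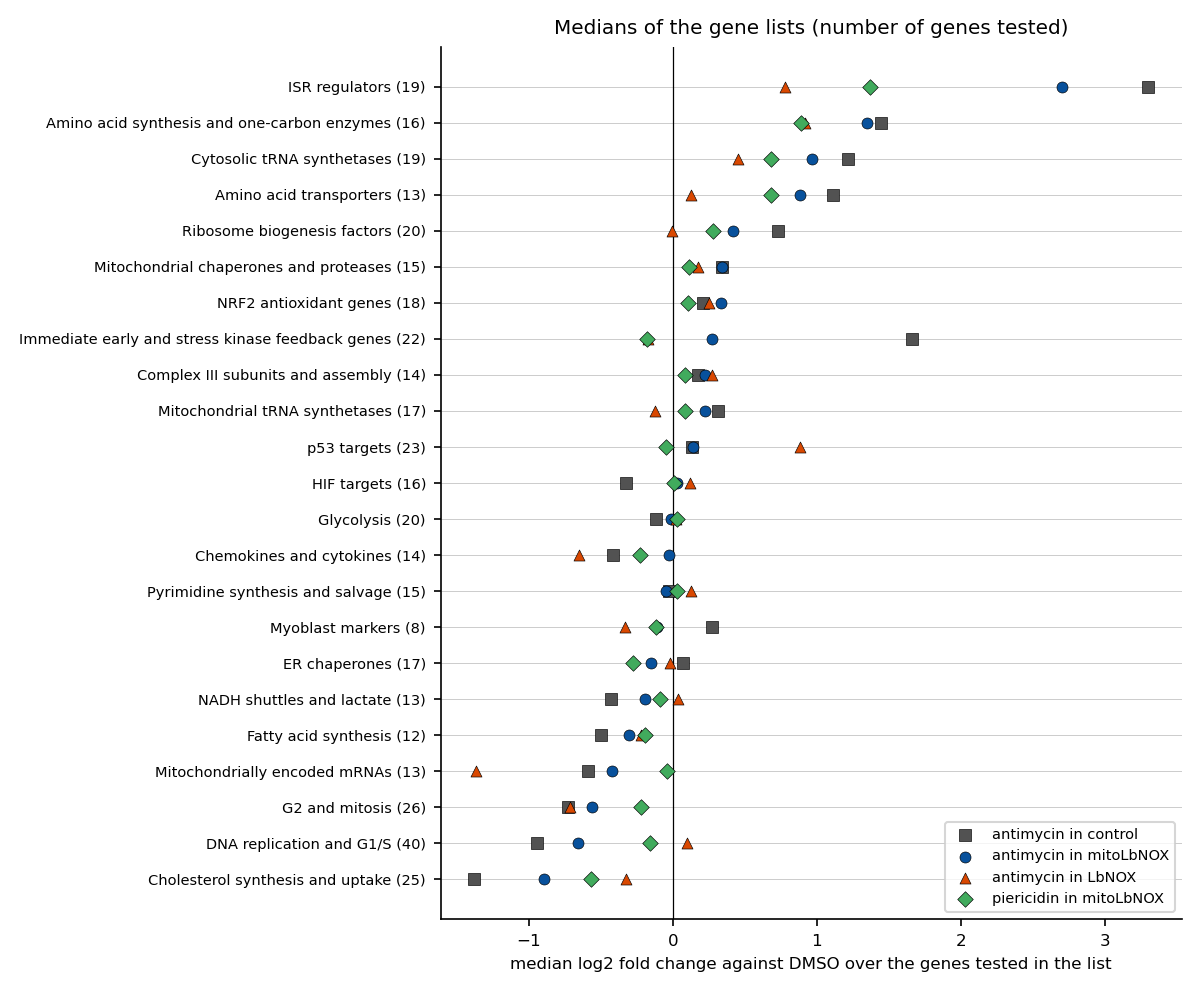
Median log2 fold change against DMSO over the tested genes of each list with 8 or more of them (number in brackets), for antimycin in control, mitoLbNOX and LbNOX cells and piericidin in mitoLbNOX cells. With antimycin in mitoLbNOX cells (circles) the ISR regulators are highest at 2.70 and the cholesterol genes lowest at -0.89.

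The next comparison asks how this response differed from that of control cells, which had no oxidase, by testing the difference between the log2 fold changes (an interaction, mitoLbNOX minus control). Most genes called in mitoLbNOX cells were also called, in the same direction, in control cells, and many changed less with the oxidase. In control cells 7568 genes (63.2%) were called, 2725 of them with at least a 2-fold change (22.7%). Of these 7568, 4245 (56.1%) were called in the same direction in mitoLbNOX cells, and they made up 74.3% of the mitoLbNOX calls. For 2750 of the 4245 (64.8%) the interaction was not called, for 1321 (31.1%) it was called with a smaller change in mitoLbNOX cells and for 174 (4.10%) with a larger one. A further 303 genes were called in opposite directions, 200 when the count filter was left out. Genes that rose at least 2-fold in control cells, 1293 in number, kept a median of 51.2% of their log2 fold change (quartiles 30.9% and 72.9%), and the 1432 that fell kept 49.1% (24.6% and 72.3%). These genes were chosen by their change in control cells, so the shares are descriptions. In all, the interaction was called for 3797 genes (31.7%), positive for 1841 (15.4%) and negative for 1956 (16.3%), and 931 (7.77%) differed by at least 2-fold. The control and mitoLbNOX cells shared no libraries but were separate lines, so the line and the enzyme cannot be told apart. By their well codes all control DMSO libraries lay at the plate edge and all control antimycin libraries inside it. Well position and antimycin thus coincided in that line. With the covariate for edge wells 6968 genes were called in control cells and 3753 for the interaction.

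**Figure D5:**
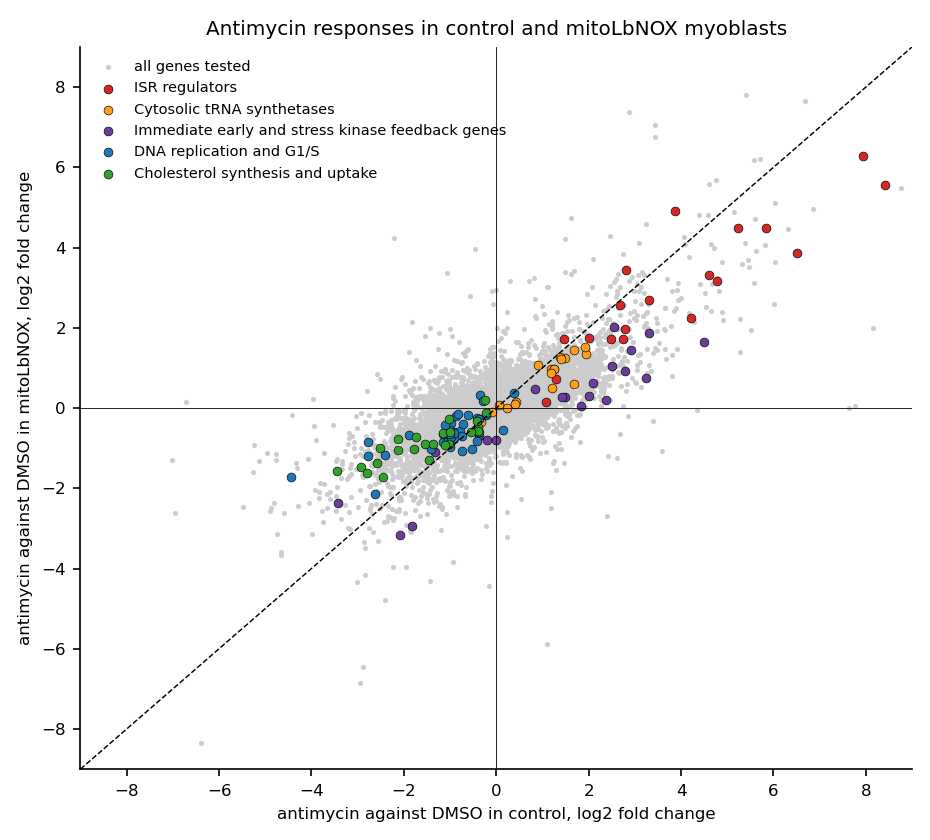
Log2 fold changes of antimycin against DMSO for the 11981 genes tested, in control cells (horizontal) and in mitoLbNOX cells (vertical), with 5 gene lists in colour and the line of equal change dashed. ISR regulators lie high on both axes, the immediate early genes mostly below the dashed line at the right, and the cholesterol and replication genes in the lower left, mostly above it.

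The ISR remained and was smaller for many of its members. The median over the 19 regulators was 2.70 in mitoLbNOX cells and 3.30 in control cells, and the interaction was negative for 11 and positive for 1 (2 without DMSO replicate 3 of the control), where 16.3% of all genes had a negative and 15.4% a positive one. With antimycin the control cells held 16329, 17150.3 and 16224 normalized counts of Atf4, from 2432, 2357 and 2508 in DMSO, and the interaction was -0.80 ± 0.04 (adjusted p = 1.55e-14). For Ddit3 they held 5954, 6192 and 5885 (interaction -0.75 ± 0.09, adjusted p = 1.38e-07). These gaps were small beside those of other targets. Control cells reached 3292, 3672 and 3486 for Atf3, from 6.67, 10.9 and 12.6 in DMSO (interaction -2.85 ± 0.39, adjusted p = 1.18e-06), and 5180.4, 4984 and 5008 for Gdf15, from 48.6, 61.3 and 57.0 (interaction -2.63 ± 0.17, adjusted p = 2.17e-13). Every mitoLbNOX library lay below every control library in antimycin for these 4 genes, of which Atf3 and Gdf15 were named for their large interaction. The share of all genes separated in this way was not computed. Ppp1r15a (-1.61 ± 0.13), Trib3 (-1.34 ± 0.12) and Chac1 (-1.29 ± 0.15) differed in the same way. Trib3 already stood higher in mitoLbNOX than in control cells with DMSO, at 101, 76.6 and 81.1 in the latter. Cdsn rose more in mitoLbNOX cells (1.05 ± 0.23, adjusted p = 0.000613). The amino acid enzymes had medians of 1.35 in mitoLbNOX and 1.45 in control cells. Of 16, 5 had a negative interaction (3 without antimycin or DMSO replicate 2 of mitoLbNOX or without antimycin replicate 2 or DMSO replicate 1 of the control) and 1, Pycr1, a positive one (1.34 ± 0.13). Pycr1 held 138, 114 and 122 in control cells with antimycin and 406, 433 and 417 in mitoLbNOX cells. Cth (0.25 ± 0.13, adjusted p = 0.155) and Asns (-0.14 ± 0.07, adjusted p = 0.132) showed no difference past the threshold, although that of Cth was called without DMSO replicate 1 of mitoLbNOX (0.42, adjusted p = 0.0112). Of the 19 cytosolic tRNA synthetases, 12 had a negative interaction, with medians of 0.97 in mitoLbNOX and 1.22 in control cells.

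Falls of many replication and sterol genes were also smaller with mitoLbNOX. The interaction was positive for 23 of the 40 replication genes, negative for 3 and not called for 14, where 15.4% of all genes had a positive and 16.3% a negative one. The 3 negative ones became 1 when only the compared groups were fitted or without DMSO replicate 2 of mitoLbNOX. Control cells with antimycin held 127, 108 and 125 of Ccne1, from 749.9, 956 and 793 in DMSO (interaction 1.59 ± 0.13, adjusted p = 1.29e-10), and 372, 319.8 and 411 of Tk1, from 1899, 1959 and 2037 (interaction 1.23 ± 0.08). Ung, at 8.35, 5.99 and 7.33 in control and 35.5, 57.1 and 71.5 in mitoLbNOX cells with antimycin, had the most positive interaction of the named genes (2.74 ± 0.33). With antimycin, each of the 3 genes thus lay lower in every control library than in every mitoLbNOX library. Ccne2 (1.94) and Cdc6 (1.23) also fell less. For the 26 mitotic genes 7 interactions were positive and 2 negative. For the 25 cholesterol genes 14 were positive and 1 negative, the latter not called in 9 alternatives, among them leaving out antimycin replicate 1 or 2 of either line, DMSO replicate 1 of either line or DMSO replicate 3 of the control. Idi1 reached 146, 139 and 150.3 in control cells with antimycin, from 1630.3, 1589.5 and 1576 (interaction 1.89 ± 0.11, adjusted p = 4.5e-14), and Hmgcs1 385, 370.1 and 308 (interaction 1.21 ± 0.09). Fdps (-0.04 ± 0.07) did not differ past the threshold (adjusted p = 0.689).

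The immediate early genes had the most negative median interaction of the lists, -1.18, with 14 of 22 called negative and 1 positive, where 16.3% of all genes were negative. Klf6, a zinc finger transcription factor, held 11029, 11416 and 10866 in control cells with antimycin, from 1199, 1162 and 1162, and 2117, 1852 and 1907 in mitoLbNOX cells (interaction -2.50 ± 0.07, adjusted p = 2.44e-21). Jun, part of AP-1, held 3728, 3627 and 3488 in control cells, from 1076, 996 and 989.6, and 974, 898 and 879.6 in mitoLbNOX cells, whose DMSO libraries held 869, 921 and 905 (interaction -1.80 ± 0.07). Jun thus overlapped with DMSO in mitoLbNOX cells and did not in control cells. Nr4a1 (-2.85), Fosl2 (-2.17) and Csrnp1 (-2.61) gave similar differences, and outside the list so did the chemokine Cxcl10 (-3.58), the matrix protein Ctgf (-3.00) and Pmaip1 (-2.72). Myf5 (-1.65) and Hmox1 (-1.73) also rose less with mitoLbNOX. Ppp1r10 went the other way. In control cells it fell from 576, 581 and 625 to 355, 272 and 299, a smaller fall than in mitoLbNOX cells (interaction -2.91 ± 0.18, adjusted p = 8.73e-14). Of 18 NRF2 genes, 9 had a positive interaction, against 15.4% of all genes. Nqo1 fell in control cells to 409, 401 and 373 and held 1050.2, 878 and 1054 in mitoLbNOX cells with antimycin (interaction 1.32 ± 0.10).

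A further comparison set antimycin against piericidin within mitoLbNOX cells, since the oxidase offers matrix NADH a route past complex I and not ubiquinol a route past complex III. It used the antimycin and piericidin libraries directly. Between them 4511 genes (37.7%) were called, 2392 higher (20.0%) and 2119 lower (17.7%) in antimycin, and 711 (5.93%) differed at least 2-fold. ISR regulators were higher in antimycin for 16 of 19, with a median difference of 1.20. Ddit3 held 560.2, 581 and 565 normalized counts with piericidin against 4314, 4377 and 4212 with antimycin (log2 difference 2.92 ± 0.06, adjusted p = 2.96e-25). Atf4 held 5011, 5014 and 4979.5 with piericidin (log2 difference 0.98 ± 0.03) and Atf3 48.0, 46.0 and 53.2 (3.62 ± 0.17). Every antimycin library of Atf4 lay above every piericidin library. Fgf21 (3.54), Tpsab1 (4.10), the cyclooxygenase Ptgs2 (3.30), Plin4 (2.78) and Gsta1 (2.70) were, with Atf3 and Ddit3, among the genes named by rule as higher in antimycin. Of 16 amino acid enzymes, 11 were higher and 2 lower in antimycin, with a median difference of 0.37. The 2 lower ones became 0 without piericidin replicate 2 and 1 in 8 other alternatives, among them leaving out piericidin replicate 1 or 3 or antimycin replicate 2 or 3. Cth held 810.5, 923 and 829 with piericidin (0.59 ± 0.08), whereas the transporter Slc7a11 (-0.69) was lower in antimycin.

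Among genes lower in antimycin, Ppp1r10 held 541, 553 and 539.5 with piericidin, within the range of the DMSO libraries (-3.86 ± 0.14), and Egr1 held 667, 745 and 737 (-2.75 ± 0.12). Angpt1 (-2.82), Etl4 (-2.78), Apln (-2.55) and 3 histone genes, Hist1h1b (-2.65), Hist1h2ab (-2.63) and Hist1h2ap (-2.35), were lower as well. Against 17.7% of all genes, 31 of 40 replication genes were lower and 1 higher (2 without antimycin replicate 2 or piericidin replicate 3), and of 26 mitotic genes 22 were lower. Of 25 cholesterol genes 11 were lower and 1 higher. Idi1 held 711, 673 and 639 with piericidin, between its DMSO and antimycin values. ER chaperones were higher in antimycin for 9 of 17. Hspa5 held 6981, 7147 and 7062 with piericidin, overlapping the DMSO libraries at 7917, 7893 and 7125 (log2 difference 1.43 ± 0.04). Messages of mitochondrial DNA were lower in antimycin for 9 of 13, and for 5 without piericidin replicate 1, and mt-Nd3 held 1256, 1369 and 1356 with piericidin (-1.16 ± 0.21).

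The last comparison tested the antimycin response in mitoLbNOX cells minus that in LbNOX cells, where cytosolic NADH is oxidized. This interaction was called for 3500 genes (29.2%), positive for 1981 (16.5%) and negative for 1519 (12.7%), and 804 (6.71%) differed at least 2-fold. The ISR was larger in mitoLbNOX cells. These were separate lines that differed in oxidase transcript, so the line, the enzyme level and the place of the enzyme cannot be told apart. Of 19 regulators, 14 had a positive interaction, and the medians were 2.70 with mitoLbNOX and 0.78 with LbNOX. In LbNOX cells Atf4 went from 2356, 2306 and 2310.1 normalized counts in DMSO to 1623, 1668 and 1564 in antimycin, a fall, where mitoLbNOX cells showed a rise (interaction 2.49 ± 0.05, adjusted p = 8.19e-27). Ddit3 went from 144, 152 and 147 to 311, 325 and 355 (interaction 3.31 ± 0.09) and Atf3 from 8.05, 16.6 and 7.85 to 26.9, 14.0 and 16.4 (interaction 4.79 ± 0.44). The values of Atf3 with LbNOX overlapped between antimycin and DMSO. Ppp1r15a (2.70), Chac1 (2.69), the tissue factor gene F3 (3.10) and Gadd45a (4.60) also rose more with mitoLbNOX. Cth, by contrast, went from 77.0, 70.5 and 74.6 to 739, 683 and 703 with LbNOX, and its interaction of 0.05 ± 0.14 did not pass the test (adjusted p = 0.919). Of the 16 amino acid enzymes, 8 had a positive and 2 a negative interaction, and of the 19 tRNA synthetases 12 a positive one. The 2 negative ones became 1 in 12 alternatives, among them leaving out any antimycin library or DMSO replicate 1 or 3 of LbNOX, or antimycin replicate 2 or 3 or DMSO replicate 1 or 2 of mitoLbNOX.

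The listed p53 targets lay in the other direction, with a negative interaction for 15 of 23 and a positive one for 1, where 12.7% of all genes were negative. This list did not hold the growth arrest gene Gadd45a (4.60) or Gdf15 (1.32), whose interactions were positive. Cdkn1a held 1194, 1094 and 1206 in LbNOX cells with DMSO and 4376, 4409.7 and 4041 with antimycin (interaction -1.33 ± 0.07, adjusted p = 6.45e-15). Trp53inp1 held 82.3, 93.7 and 68.7 with DMSO and 517, 518 and 469.5 with antimycin (interaction -2.19 ± 0.37, adjusted p = 2.69e-05). Both genes stood well above their DMSO values in LbNOX cells, and the changes in mitoLbNOX cells were small or overlapping. Ddit4l (-2.48) and Fas (-1.56) also had negative interactions, as had Pidd1 (-2.02) and Ccng1 (-1.24), which fell in mitoLbNOX cells (log2 fold changes -1.31 and -0.41). Replication genes were lower relative to LbNOX for 31 of 40 and higher for 1 (0 without antimycin replicate 1 of mitoLbNOX or DMSO replicate 2 of LbNOX, and 2 without antimycin replicate 2 of mitoLbNOX). Ccne1 held 1018, 938 and 1043 in LbNOX cells with antimycin, above their DMSO libraries at 881, 917 and 819 (interaction -1.41 ± 0.12), and Tk1 held 1608, 1651 and 1609.9 (-0.88 ± 0.08). Mitotic genes did not follow, with 10 of 26 higher (6 without DMSO replicate 3 of mitoLbNOX) and 7 lower (2 with no count filter and 4 when only the compared groups were fitted). Cholesterol genes were lower for 15 of 25, with Idi1 at 1498, 1437 and 1349 in LbNOX cells with antimycin (-1.47 ± 0.10). Messages of mitochondrial DNA fell less with mitoLbNOX, with a positive interaction for 10 of 13 and medians of -0.43 with mitoLbNOX and -1.37 with LbNOX. In LbNOX cells mt-Cytb went from 8199, 8233 and 7765 to 1657, 1497 and 1569 (interaction 1.38 ± 0.12, adjusted p = 1.89e-10) and mt-Nd3 from 1152, 842 and 1102 to 88.3, 81.2 and 179 (2.05 ± 0.32). No antimycin library of LbNOX cells reached a mitoLbNOX antimycin library in either gene, a separation whose share over all genes was not computed. Cpne1, a calcium-dependent lipid-binding protein, stood at 35.5, 44.4 and 53.6 in LbNOX and 330.1, 264 and 255 in mitoLbNOX cells with antimycin (interaction 2.65 ± 0.17), and Ppp1r10 fell in LbNOX cells too, to 53.7, 78.7 and 62.4 (interaction -0.69 ± 0.19). The oxidase transcript was 2.02 times as high in mitoLbNOX as in LbNOX cells with DMSO, and its part in these differences was not tested.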

How the data were processed

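RNA was taken from 24-well plates of C2C12 cells, 50 ng per sample were made into polyA-primed Smart-seq2 libraries, which do not keep strand, and these were sequenced with paired 37 bp reads. Per the study's methods and processing notes, the authors used bcl2fastq 2.20.0.422, quantified reads with kallisto 0.44 against Ensembl 93 mouse transcripts (mm10) and the transgenes, and summed them per gene with tximport. The authors deposited estimated counts per gene, as whole numbers, with no normalization. Reads of near-identical genes are split by the quantification, so single members of such families are uncertain.

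All 37 myoblast libraries treated for 10 hr (13 conditions, 7796879 to 14960910 counts) were fitted together in edgeR 4.0.16 (R 4.3.3), with TMM scaling, 1 coefficient per condition and the quasi-likelihood F test. Of 54146 genes, 11981 were tested, those for which some condition had 16 or more counts in all of its replicates, and p-values were adjusted by Benjamini-Hochberg over all of them, with a threshold of 0.05. Standard errors were obtained from each log2 fold change and its F statistic (size over √F). Levels are counts divided by DESeq2 1.42.0 size factors. The steps were tested on simulated counts.

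Genes were named by rule: up to 15 in each direction in the antimycin comparison (8 in the others) with the largest change among those called, a mean of at least 50 normalized counts and, outside the interactions, no overlap; up to 4 called members of each of 25 lists; and 10 genes that the study names. Some genes that the rule selects are not reported here. Other list members given as examples were chosen after their values were seen. The comparison and the lists were chosen with earlier results of these data known. Alternatives were DESeq2 size factors, no count filter, the DESeq2 Wald test, replicate number as a block, a fit of the compared groups alone, a covariate for edge wells and leaving out each library. Promoter windows came from RefSeq, and gene positions from GENCODE for GRCm38. Figures were drawn with matplotlib 3.10.9.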

Additional observations from a re-analysis of the deposited data

Results flagged for a closer look

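The antimycin response of mitoLbNOX cells differed from that of control cells by the test of the difference itself for 3797 genes. Among the genes named by rule, the difference on the log2 scale (mitoLbNOX minus control) was positive for Ung (2.74), Slfn9 (2.60), Zfp808 (2.50), Kantr (2.46), Crip1 (2.43), Taf9 (2.41), Tcf19 (2.31), Zfp239 (2.19), Ccne1 (1.59), Tk1 (1.23) and Idi1 (1.89). It was negative for Cxcl10 (-3.58), Ctgf (-3.00), Ppp1r10 (-2.91), Nr4a1 (-2.85), Atf3 (-2.85), Pmaip1 (-2.72), Gdf15 (-2.63), Csrnp1 (-2.61), Ddit3 (-0.75), Atf4 (-0.80) and Ppp1r15a (-1.61). Ung, Ccne1, Tk1 and Idi1 fell less in mitoLbNOX cells. Taf9 varied widely, with 14.6, 12.1 and 101 normalized counts in the mitoLbNOX DMSO libraries. Its difference was 4.04 without DMSO replicate 3 of mitoLbNOX, and it was not called when only the compared groups were fitted (adjusted p = 0.107) or without antimycin replicate 2 or DMSO replicate 1 or 2 of mitoLbNOX or replicate 3 of either control group (0.0717 to 0.106).

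The response differed from that of LbNOX cells for 3500 genes by the same test. The difference (mitoLbNOX minus LbNOX) was positive for Atf3 (4.79), Ddit3 (3.31), F3 (3.10), Ppp1r15a (2.70), Gpr176 (2.70), Chac1 (2.69), Kif21b (2.66), Cpne1 (2.65), Gdf15 (1.32) and Atf4 (2.49). It was negative for Ddit4l (-2.48), Arc (-2.37), Mgea5 (-2.24), Trp53inp1 (-2.19), Etl4 (-2.15), Mxd3 (-2.10), Fam212b (-2.03), Ccne1 (-1.41), Tk1 (-0.88), Idi1 (-1.47) and Cdkn1a (-1.33). Atf4 rose with mitoLbNOX and fell with LbNOX. Groups of 3 libraries were not tested for outlying samples.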

How the results depend on the processing

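No comparison's count moved by more than 1.5 times under any alternative. The 5711 genes called for antimycin in mitoLbNOX cells ranged from 5153 to 5723 when each library was left out in turn, with 5695 under DESeq2 size factors, 5573 in the DESeq2 Wald test, 5214 with no count filter, 5233 when only the compared groups were fitted and 5832 with a covariate for edge wells. The interaction with the control gave 3353 to 3893 calls, the comparison with piericidin 3878 to 4611 and that with LbNOX 2903 to 3727. With DESeq2 size factors the median of all genes moved from 0.0056 to -0.0041 on the log2 scale.

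The replicate numbers were not shown to pair the libraries: deviations of antimycin and DMSO libraries with the same number correlated at 0.0862, -0.124 and 0.0504. With the replicate block 5793 genes were called for antimycin, 3893 for the interaction, 4611 against piericidin and 3581 against LbNOX.

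Counts of called members in the gene lists, each direction in each alternative, moved by more than 1.5 times in 9 of 900 cases for antimycin, 77 of 900 for the interaction, 34 of 600 against piericidin and 70 of 900 against LbNOX, and the reported counts that moved were at most 1, 6, 9 and 10 members.

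The number of genes called in opposite directions in control and mitoLbNOX cells was 303, and 200 with no count filter. Of 238 results for single genes, 228 kept their direction and call in all alternatives in which they were fitted. The difference of Cth between mitoLbNOX and LbNOX, near 0, ran from -0.065 to 0.22 when each library was left out, with -0.040 and -0.065 without antimycin replicate 1 or DMSO replicate 3 of mitoLbNOX. In the antimycin comparison, Atf5 and Cbs lost their calls when only the compared groups were fitted (adjusted p = 0.120 and 0.101), Cbs with no count filter (0.233) and Atf5 with the well covariate (0.0875). The interaction of Asns was called with the well covariate (-0.19, adjusted p = 0.0165). The cause of these changes was not tested. Depth limits the low genes, such as Fgf21, Car6 and Avil in DMSO.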
